A study of Homo sapiens with 12 samples.

Results

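Integrins are cell surface receptors for the extracellular matrix, and the 10 subunit genes typical of epithelial cells were read in 2 pancreatic cancer lines and their gemcitabine (GEM)-resistant derivatives. The rows were taken by gene symbol, with 5 β subunits (ITGB1, ITGB4, ITGB5, ITGB6, ITGB8) and 5 α subunits (ITGA2, ITGA3, ITGA5, ITGA6, ITGAV), and each symbol matched 1 row, giving 10 of the 58302 genes in the table. RNA sequencing covered 12 libraries. BxPC-3 and CFPAC-1 are established human pancreatic cancer lines labelled GEM-sensitive and of epithelial morphology, with 3 libraries each. BxPC-3-GR, labelled mesenchymal, and CFPAC-1-GR, labelled epithelial, are their resistant derivatives, also with 3 libraries each, selected by stepwise rises of GEM. Each parent gave 1 resistant line, so what came with resistance and what is particular to that line cannot be told apart, and nothing says that libraries of a line came from separate cultures, so p-values measure the spread between libraries, which may be technical. The labels give 1 medium for all lines and the study's methods a different one for each parent, so medium and line cannot be told apart between the lines. Values are FPKM, fragments per transcript length and library size, a scale divided by transcript length, so that levels of different genes could be set side by side.

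An integrin is a heterodimer of 1 α and 1 β subunit, and the pair decides the ligand. ITGB1 is the common partner of most α subunits, whereas ITGB4 pairs with ITGA6 alone, and ITGB5, ITGB6 and ITGB8 pair with ITGAV alone. α2β1 binds collagen, α3β1, α6β1 and α6β4 bind laminin, α5β1 binds fibronectin, αVβ5 binds vitronectin, and αVβ6 and αVβ8 bind the latency peptide of TGF-β and release the active cytokine. In a normal epithelium α6β4 anchors cells to the basement membrane through hemidesmosomes.

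The libraries fitted the epithelial label in part. EPCAM, an epithelial surface protein, was at 53.7 FPKM or more in every library and KRT19, a duct keratin, at 446 FPKM or more. All 10 epithelial markers averaged at least 1 FPKM in 3 lines, and 9 did in CFPAC-1-GR. VIM, the mesenchymal filament protein, was at 5.51 to 7.25 FPKM in BxPC-3 and at 0.686 to 0.891 in BxPC-3-GR, while CFPAC-1 had 106 to 141 and CFPAC-1-GR 51.2 to 68.7. The mesenchymal markers did not move one way in BxPC-3-GR, the line labelled mesenchymal. Of 4 tested there, VIM was SDE downward and S100A4 (2.35 to 18.1 FPKM, log2FC 2.51) and CDH2 (1.99 to 5.40 FPKM, log2FC 1.10) were SDE upward by limma. That is 25% downward and 50% upward, against 3.62% and 4.14% of all genes. SNAI2, the other one tested, was lower without being SDE (41.2 to 23.0 FPKM, log2FC -0.81, limma adjusted p = 7.44e-05). PTPRC, which defines leukocytes, was listed at 0 in all 12 libraries. The 6 leukocyte markers together nevertheless summed to 9.52 to 11.8 FPKM in CFPAC-1 libraries and 4.54 to 6.22 in those of CFPAC-1-GR, carried by LYZ and CD14 (7.02 and 3.33 FPKM in CFPAC-1), against 0.555 to 0.823 in BxPC-3 and 0.730 to 0.783 in BxPC-3-GR, and their part in the results was not tested. The 5 endothelial markers summed to 0.391 to 0.911 FPKM per library. The 9 fibroblast and stellate markers summed to 3.58 to 4.27 FPKM in BxPC-3, 0.627 to 0.705 in BxPC-3-GR, while the CFPAC-1 libraries gave 3.86 to 5.09 and those of CFPAC-1-GR 4.26 to 5.83. In bulk RNA, fewer cells of a type and less RNA per cell cannot be told apart. RRM1, the target of active GEM and the check of the resistant lines, averaged 29.1 ± 1.31 FPKM in BxPC-3, 413 ± 14.9 in BxPC-3-GR, 8.07 ± 0.809 in CFPAC-1 and 305.6 ± 4.91 in CFPAC-1-GR (SD, n = 3). The steps of the low values of single-transcript genes implied 12600000 to 25200000 fragments per library.

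The libraries of parental CFPAC-1 stood apart by base composition, and this touches every value set against them. Across all genes tested, log2 fold changes (log2FC) followed transcript GC content with a Spearman's rho of -0.777 for CFPAC-1-GR against CFPAC-1 and 0.628 for CFPAC-1 against BxPC-3, but 0.0388 for BxPC-3-GR against BxPC-3 and -0.0189 for CFPAC-1-GR against BxPC-3-GR. Genes are not independent replicates, and these values describe the libraries. The integrins split into 6 genes of low GC content, from 37.8% for ITGB8 through ITGAV, ITGB1, ITGB6 and ITGA2 to 42.9% for ITGA6, and 4 of high GC content, from 54.3% for ITGB5 through ITGA5 and ITGA3 to 63.7% for ITGB4. Each log2FC of a subunit against parental CFPAC-1, and the ratios read from it, are therefore also given after a correction of the log values for GC content and gene length. What made the trend was not tested.

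**Figure D1:**
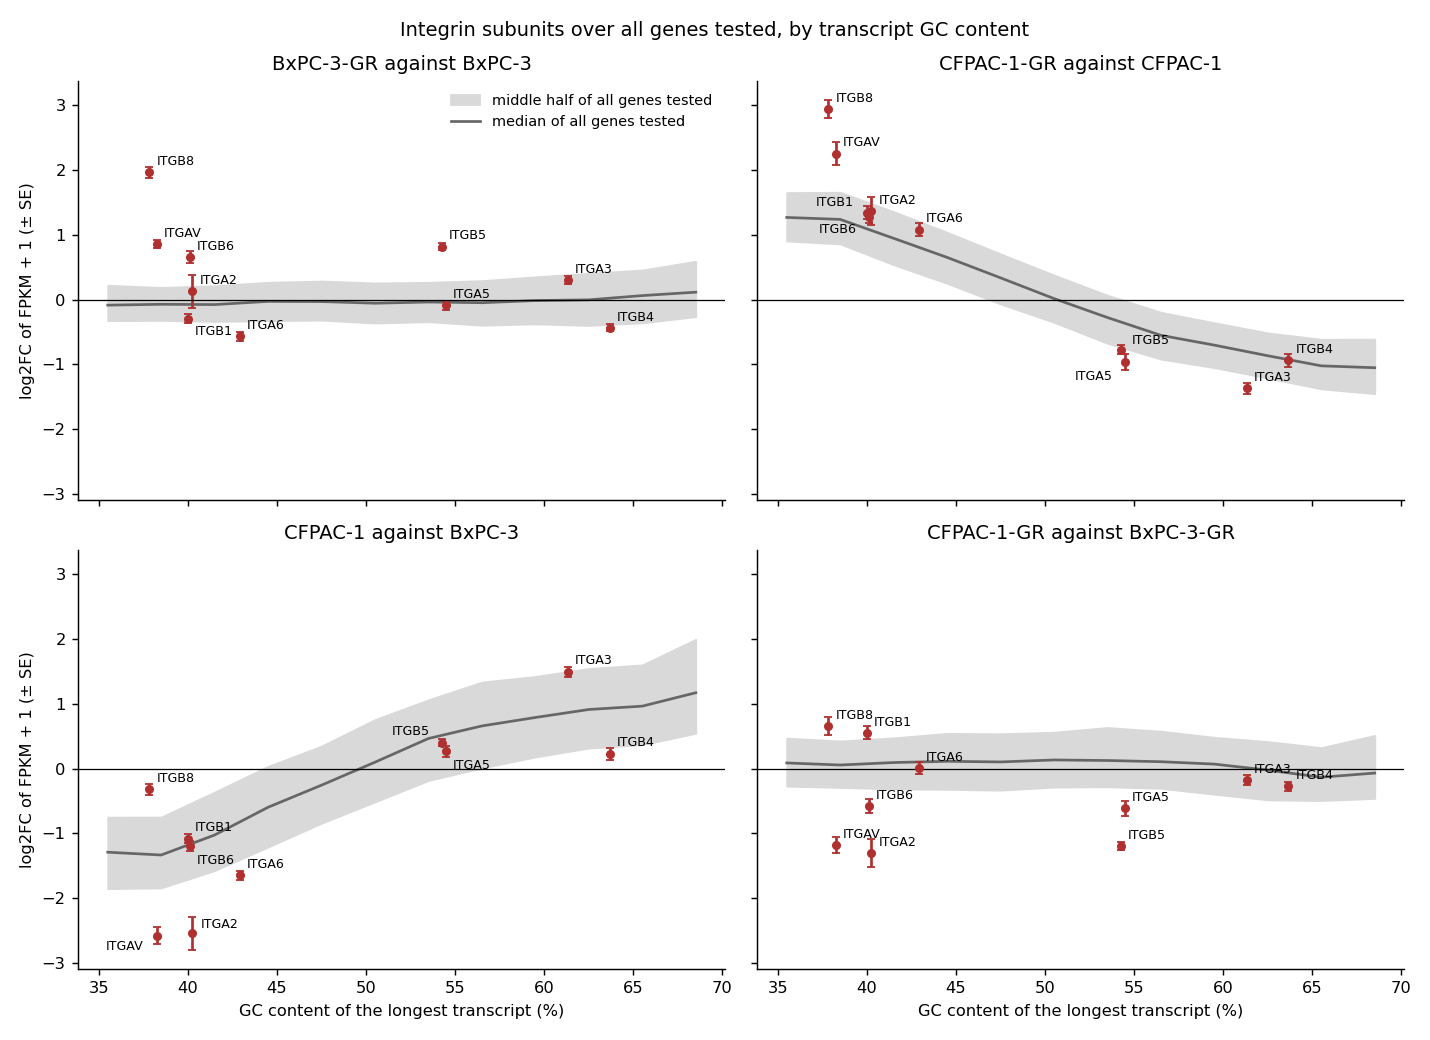
Each panel plots the log2FC of FPKM + 1 (vertical axis, ± SE) of the 10 integrin subunits against the GC content of the longest transcript (horizontal axis, %), over the median (line) and the interquartile range (shaded band) of all genes tested in 3% bins. The band slopes down for CFPAC-1-GR against CFPAC-1 (rho -0.777), slopes up for CFPAC-1 against BxPC-3 (rho 0.628) and is nearly flat in the other panels; ITGB8 and ITGAV lie above the band in both resistant lines.

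Genes were tested on log2(FPKM + 1) with limma, with Benjamini-Hochberg adjusted p-values over all genes of at least 1 FPKM on average, and all 10 subunits passed this filter in each comparison. A gene is written as higher or lower, risen or fallen, where its adjusted p was below 0.05, and as significantly differentially expressed (SDE) where its log2FC also passed 1 in either direction. The log2FC values stand on the log2(FPKM + 1) scale, which understates the change of the low genes, and folds are ratios of mean FPKM. In BxPC-3-GR, 5 of the 10 subunits rose (ITGB8, ITGAV, ITGB5, ITGB6, ITGA3) against 26.2% of all genes tested, and 3 fell (ITGA6, ITGB4, ITGB1) against 31.5%. Of these, 1 subunit (ITGB8) was SDE upward against 4.14% of all genes, and 0 were SDE downward by limma against 3.62%, with 3 lower at an unadjusted p below 0.05. In CFPAC-1-GR, 6 subunits rose, against 44.6% of all genes, and the same 6 were SDE upward (ITGB8, ITGAV, ITGA2, ITGB1, ITGB6, ITGA6), against 20.5%. The other 4 fell, against 34.9%, and 1 of them (ITGA3) was SDE downward, against 11.7%. The 6 that rose in CFPAC-1-GR were the 6 of low GC content and the 4 that fell were those of high GC content. After the correction, 2 subunits were SDE upward in CFPAC-1-GR (ITGB8 and ITGAV) against 7.07% of all genes, and 0 downward by limma against 2.35%, with 3 lower at an unadjusted p below 0.05.

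**Figure D2:**
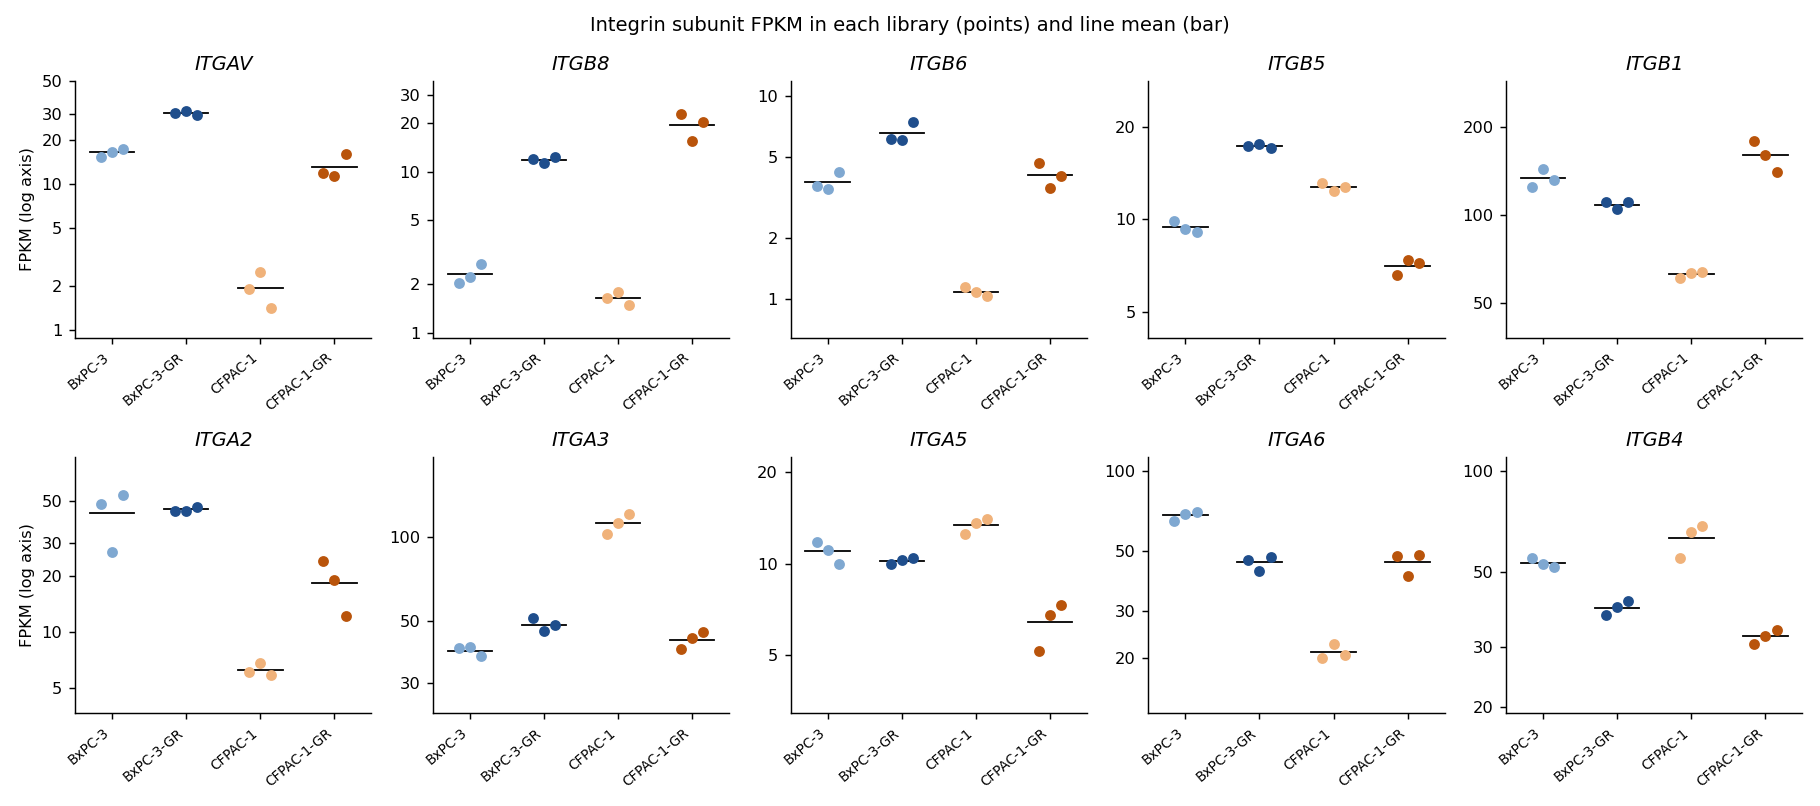
FPKM of each integrin subunit (vertical axes, log scale, each panel with its own range) in the 3 libraries of each line (points) with the line mean (bar). ITGB8 sits at 1.49 to 2.65 FPKM in the 6 parental libraries and at 11.2 to 22.8 in the 6 resistant ones, and ITGA2 shows 1 low BxPC-3 library at 26.8.

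**Figure D3:**
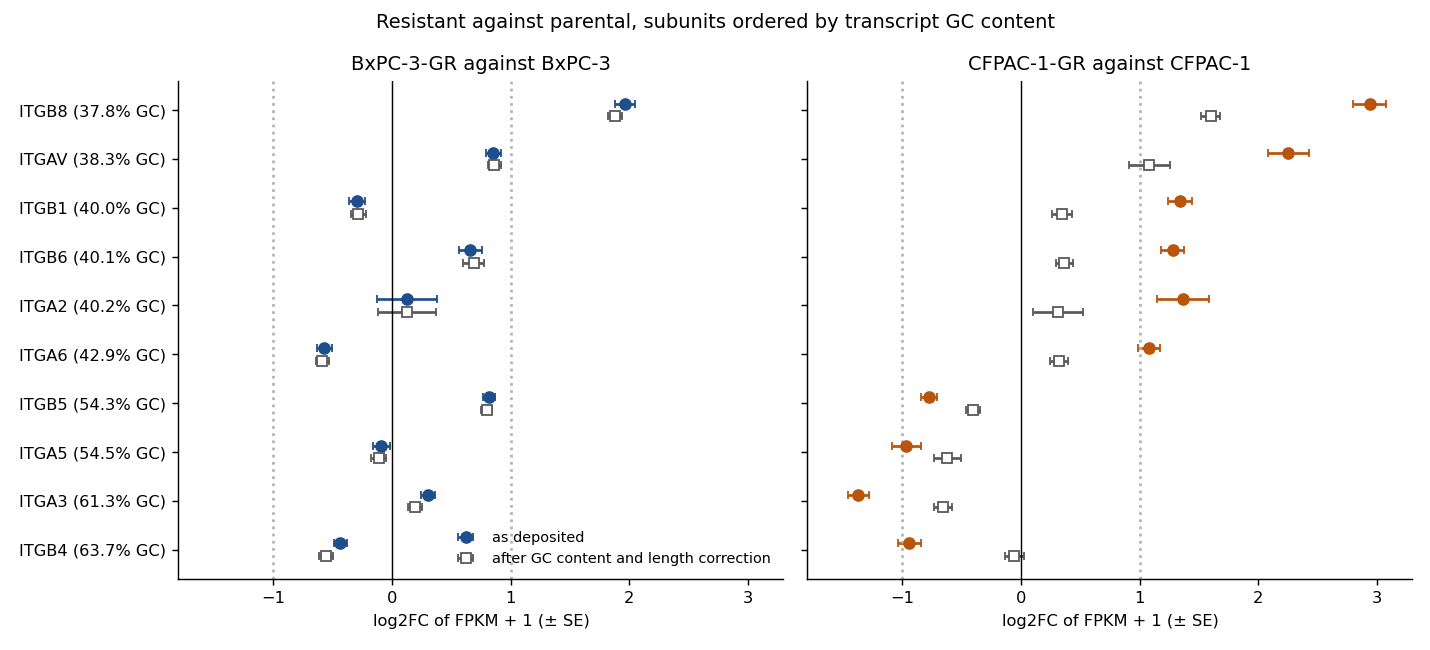
The log2FC of FPKM + 1 (± SE) of resistant against parental libraries for the 10 subunits, ordered by transcript GC content from the lowest at the top, as deposited (filled circles) and after the GC content and length correction (open squares), with dotted lines at the SDE threshold of 1. The 2 sets nearly coincide in BxPC-3-GR, whereas in CFPAC-1-GR the correction moves ITGB8 from 2.94 to 1.60 and ITGAV from 2.25 to 1.08 and leaves the other 8 subunits inside the threshold.

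ITGB8, on chromosome 7 (20330702 to 20415754, plus strand, GRCh38), encodes the β8 subunit, which differs from the other β subunits in that its cytoplasmic tail does not anchor to the cytoskeleton. It was at 2.04, 2.23 and 2.65 FPKM in BxPC-3 and at 12.03, 11.2 and 12.3 FPKM in BxPC-3-GR. In CFPAC-1 it was at 1.65, 1.80 and 1.49 FPKM and in CFPAC-1-GR at 22.8, 15.5 and 20.2 FPKM. Every resistant library lay above every parental one, in both lines, and the parental values stood on about 168 fragments or more per library. The rise was 5.14-fold in BxPC-3-GR (log2FC 1.96, SE 0.082, limma adjusted p = 1.49e-05) and 11.9-fold in CFPAC-1-GR (log2FC 2.94, SE 0.139, adjusted p = 6.29e-06). With the correction it was 1.88 for the former and 1.60 for the latter on the log2 scale (SE 0.082, adjusted p = 4.23e-05 in CFPAC-1-GR). ITGB8 was the one subunit that was SDE in the same direction in both resistant lines.

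ITGAV, on chromosome 2 (186590065 to 186680901, plus strand), encodes αV, without which β5, β6 and β8 have no partner. Its FPKM was 15.3, 16.5 and 17.4 in BxPC-3 and 30.4, 31.4 and 29.3 in BxPC-3-GR. In CFPAC-1 it was 1.92, 2.48 and 1.43, the lowest of the 4 lines, and in CFPAC-1-GR 11.7, 11.3 and 16.0. The resistant libraries were all above their parents, but those of CFPAC-1-GR overlapped those of parental BxPC-3. The gene rose 1.85-fold in BxPC-3-GR (log2FC 0.85, SE 0.064, limma adjusted p = 0.000111) and 6.70-fold in CFPAC-1-GR (log2FC 2.25, SE 0.172, adjusted p = 2.48e-05), and by 1.08 on the log2 scale in CFPAC-1-GR after the correction (adjusted p = 0.00195).

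ITGB6, on chromosome 2 (160099666 to 160271888 in the deposited table, minus strand), encodes β6, a subunit found mainly in epithelia. It was at 3.60, 3.46 and 4.24 FPKM in BxPC-3 and 6.12, 6.07 and 7.41 in BxPC-3-GR, and at 1.14, 1.08 and 1.03 in CFPAC-1 and 4.65, 3.50 and 4.04 in CFPAC-1-GR. The libraries did not overlap within either line. It rose 1.74-fold in BxPC-3-GR (log2FC 0.66, SE 0.097, limma adjusted p = 0.00169) and 3.76-fold in CFPAC-1-GR (log2FC 1.28, SE 0.094, adjusted p = 2.13e-05), and the latter came to 0.37 after the correction (adjusted p = 0.00466), under the SDE threshold. ITGB6 was the lowest subunit in 3 of the 4 lines, and in BxPC-3 only ITGB8 was lower.

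The promoters of these 3 subunits are shown because all 3 rose in both resistant lines. The RefSeq table (GRCh38.p14) held 300-base windows, from 250 bases before to 50 after a gene's start, for 8 of the 10 subunits, and the 250 bases before the first listed start are printed on the gene's strand, with capitals at matches to GGGCGG on either strand, the GC box bound by SP and KLF factors. The ITGB8 stretch is chr7:20330650-20330899, the ITGAV stretch chr2:186589806-186590055 and the ITGB6 stretch chr2:160200273-160200522. The sources place gene starts differently. The ITGB8 stretch thus runs past the gene start given above (20330702), and the ITGB6 stretch lies inside the deposited span of its gene.
ITGB8: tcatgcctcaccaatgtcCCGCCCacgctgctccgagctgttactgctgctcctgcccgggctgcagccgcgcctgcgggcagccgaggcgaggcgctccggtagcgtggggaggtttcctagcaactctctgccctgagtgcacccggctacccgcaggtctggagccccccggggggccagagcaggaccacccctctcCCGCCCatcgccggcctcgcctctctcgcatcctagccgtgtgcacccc
ITGAV: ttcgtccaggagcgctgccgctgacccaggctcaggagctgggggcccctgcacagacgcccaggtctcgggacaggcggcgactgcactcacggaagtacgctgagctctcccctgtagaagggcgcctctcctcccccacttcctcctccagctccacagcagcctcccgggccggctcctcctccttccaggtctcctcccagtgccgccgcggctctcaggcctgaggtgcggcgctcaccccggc
ITGB6: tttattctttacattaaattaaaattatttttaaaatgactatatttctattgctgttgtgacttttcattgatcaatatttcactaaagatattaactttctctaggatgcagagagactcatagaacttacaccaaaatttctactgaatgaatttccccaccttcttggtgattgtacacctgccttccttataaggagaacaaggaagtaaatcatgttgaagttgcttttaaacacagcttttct
The 300-base windows differed in base composition: that of ITGB8 was 71.7% GC and that of ITGAV 70.7%, while that of ITGB6 was 31.7% GC, against a median of 58.7% over the table. ITGB8 had 2 GC boxes and ITGAV and ITGB6 had 0, in a table where 45.0% of 35116 windows had one. The AP-1 motif TGANTCA, found in 7.71% of windows on either strand, and TATAAA, found in 11.5%, had 0 matches in all 3 windows; among the 13 windows of the 8 subunits, AP-1 matched in 1, that of ITGA5. These matches describe letters in a window and not binding.

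ITGB5, on chromosome 3 (124761948 to 124901418, minus strand), encodes β5, the vitronectin-binding partner of αV. It was at 9.86, 9.29 and 9.12 FPKM in BxPC-3 and 17.4, 17.6 and 17.1 in BxPC-3-GR, but at 13.2, 12.3 and 12.8 in CFPAC-1 and 6.59, 7.34 and 7.21 in CFPAC-1-GR. The gene moved in opposite directions in the 2 resistant lines, with no overlap of libraries in either. It rose 1.84-fold in BxPC-3-GR (log2FC 0.82, SE 0.050, limma adjusted p = 5.80e-05) and was 1.81-fold lower in CFPAC-1-GR (log2FC -0.77, SE 0.069, adjusted p = 4.86e-05; -0.40 after the correction, adjusted p = 0.00129). The difference between the responses was -1.59 on the log2 scale (SE 0.077, limma interaction, adjusted p = 2.18e-08).

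The make-up of the αV-only β subunits shifted to β8 in both lines. Of the summed FPKM of ITGB5, ITGB6 and ITGB8, ITGB8 held 14.9% ± 1.71 in BxPC-3 and 33.2% ± 0.877 in BxPC-3-GR (SD, n = 3). For CFPAC-1 and CFPAC-1-GR its shares were 10.6% ± 1.06 and 63.4% ± 4.14, and the libraries of parent and derivative did not overlap in either line. ITGB5 went from 60.9% ± 3.48 to 48.6% ± 2.01 and from 82.4% ± 1.21 to 23.4% ± 4.27. ITGB5 stayed the most abundant of the 3 in BxPC-3-GR, whereas in CFPAC-1-GR its place was taken by ITGB8. With the correction, a setting chosen after the values were seen, ITGB8 held 19.9% ± 1.15 in CFPAC-1 and 52.0% ± 2.30 in CFPAC-1-GR. The sum of the 3 was nearly the same in the parents, 15.5 ± 0.512 FPKM in BxPC-3 and 15.5 ± 0.401 in CFPAC-1, and was higher in all resistant libraries, at 35.8 ± 0.976 for BxPC-3-GR and 30.6 ± 3.91 for CFPAC-1-GR. Set against this sum, αV was at 1.06 ± 0.0638 of it in BxPC-3 and 0.851 ± 0.0516 in BxPC-3-GR, but at 0.126 ± 0.0353 in CFPAC-1 and 0.428 ± 0.0813 in CFPAC-1-GR, so that on the FPKM scale αV was the scarcer side in every library of 3 lines, the exception being BxPC-3. After the correction, also chosen after the values were seen, the ratio was 0.211 ± 0.0466 in CFPAC-1 and 0.370 ± 0.0749 in CFPAC-1-GR, and the sum of the 3 was 16.1 ± 0.428 and 22.6 ± 1.04 FPKM.

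**Figure D4:**
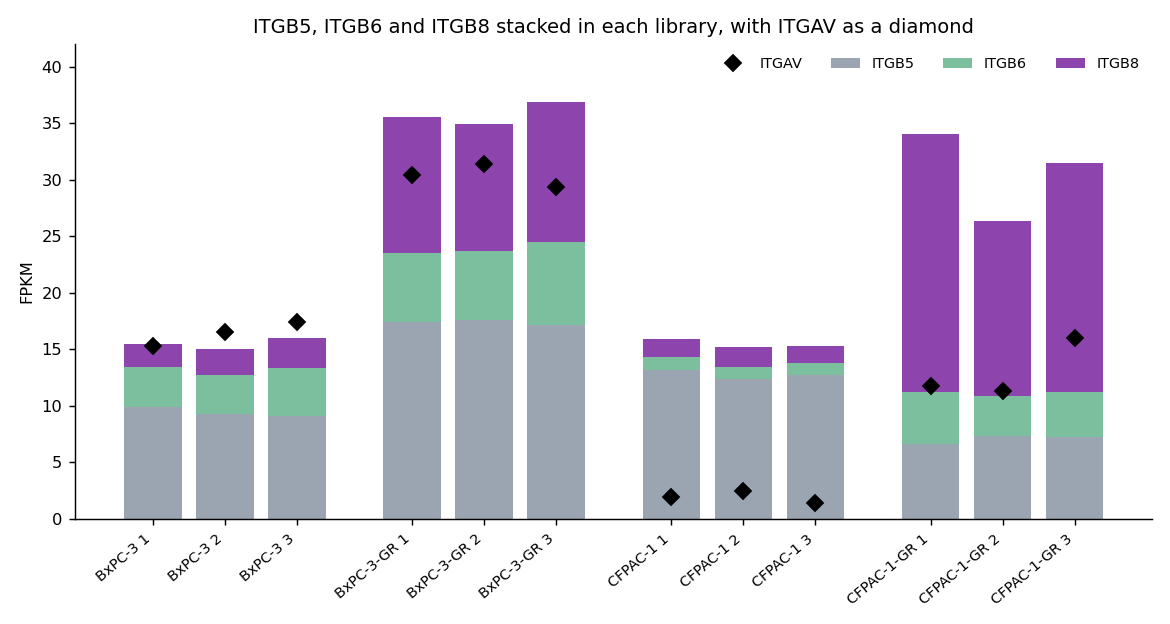
FPKM (vertical axis, linear from 0) of ITGB5, ITGB6 and ITGB8 stacked for each of the 12 libraries, with ITGAV as a diamond. The stacks are near 15.5 in both parents and near 35.8 for BxPC-3-GR and 30.6 for CFPAC-1-GR, the ITGB8 portion is largest in CFPAC-1-GR, and the diamonds lie at 1.43 to 2.48 in CFPAC-1.

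ITGA6, on chromosome 2 (172427354 to 172506282, plus strand), encodes the laminin-binding α6. It was at 65.1, 68.8 and 70.4 FPKM in BxPC-3 and 46.7, 42.4 and 47.8 in BxPC-3-GR, and at 20.0, 22.7 and 20.6 in CFPAC-1 and 48.3, 40.6 and 48.6 in CFPAC-1-GR. The parents differed most, and the resistant libraries of the 2 lines overlapped. ITGA6 was 1.49-fold lower in BxPC-3-GR (log2FC -0.57, SE 0.065, limma adjusted p = 0.000601) and 2.17-fold higher in CFPAC-1-GR (log2FC 1.08, SE 0.095, adjusted p = 4.59e-05), which came to 0.32 after the correction (adjusted p = 0.0116).

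ITGB4, on chromosome 17 (75721328 to 75757818, plus strand), encodes β4, whose long cytoplasmic domain binds plectin in hemidesmosomes. It was at 55.3, 53.1 and 52.0 FPKM in BxPC-3 and 37.3, 39.5 and 41.1 in BxPC-3-GR, and at 55.0, 66.0 and 68.7 in CFPAC-1 and 30.7, 32.5 and 33.9 in CFPAC-1-GR. It was lower in every resistant library than in its parent's. The fall was 1.36-fold in BxPC-3-GR (log2FC -0.43, SE 0.057, limma adjusted p = 0.00106) and 1.95-fold in CFPAC-1-GR (log2FC -0.94, SE 0.0995, adjusted p = 0.000111). After the correction ITGB4 was at -0.56 in BxPC-3-GR (adjusted p = 0.000390) but at -0.056 in CFPAC-1-GR (adjusted p = 0.588), so its fall in CFPAC-1-GR did not hold. GALK1 overlaps ITGB4 on the other strand and reached 7.94 FPKM at most, and the strand setting of the libraries is not given in the sources used here.

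ITGA3, on chromosome 17 (50055968 to 50090481, plus strand), encodes α3, which with β1 binds laminin-332 outside hemidesmosomes. Its FPKM was 39.9, 40.3 and 37.3 in BxPC-3 and 51.2, 46.2 and 48.3 in BxPC-3-GR, but 103, 113 and 122 in CFPAC-1 and 39.5, 43.5 and 45.5 in CFPAC-1-GR. CFPAC-1 had the most of any line, and CFPAC-1-GR was near the BxPC-3 lines. ITGA3 was 1.24-fold higher in BxPC-3-GR (log2FC 0.30, SE 0.061, limma adjusted p = 0.00627) and 2.62-fold lower in CFPAC-1-GR (log2FC -1.37, SE 0.090, adjusted p = 1.40e-05), which came to -0.66 after the correction (adjusted p = 0.000492). The ratio of α6 to α3 FPKM went from 1.74 ± 0.129 in BxPC-3 to 0.940 ± 0.0441 in BxPC-3-GR, and from 0.188 ± 0.0168 in CFPAC-1 to 1.07 ± 0.144 in CFPAC-1-GR (SD, n = 3). This ratio sets a gene of low against one of high GC content, and after the correction it was 0.317 ± 0.0290 in CFPAC-1 and 0.636 ± 0.0681 in CFPAC-1-GR, against 1.68 ± 0.0760 and 0.970 ± 0.0293 in the BxPC-3 pair. α3 thus exceeded α6 in CFPAC-1 and α6 exceeded α3 in BxPC-3 under both settings, while CFPAC-1-GR was near parity as deposited. The correction shifts the libraries of both lines toward their common mean, so the corrected ratio in CFPAC-1-GR also depends on its parent. Against BxPC-3-GR, ITGA6 and ITGA3 in CFPAC-1-GR were at log2FC values of 0.069 and -0.029 after the correction.

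ITGB1, on chromosome 10 (32900319 to 33005792, minus strand), encodes β1, the shared partner of the collagen, laminin and fibronectin receptors. It was at 125, 145 and 132 FPKM in BxPC-3 and 111, 105 and 111 in BxPC-3-GR, and at 60.9, 63.3 and 63.7 in CFPAC-1 and 180.4, 161 and 141 in CFPAC-1-GR. It led the 10 subunits in 3 lines, whereas in CFPAC-1 it overlapped ITGB4 and stood under ITGA3. It was 1.23-fold lower in BxPC-3-GR (log2FC -0.29, SE 0.069, limma adjusted p = 0.0113) and 2.57-fold higher in CFPAC-1-GR (log2FC 1.34, SE 0.099, adjusted p = 2.15e-05), or 0.35 after the correction (adjusted p = 0.0114). The summed FPKM of the 5 α subunits was 1.34 ± 0.178 times that of ITGB1 in BxPC-3, 1.65 ± 0.0129 in BxPC-3-GR, 2.47 ± 0.109 in CFPAC-1 and 0.795 ± 0.110 in CFPAC-1-GR, and after the correction 1.58 ± 0.0415 in CFPAC-1 and 1.05 ± 0.129 in CFPAC-1-GR.

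ITGA2, on chromosome 5 (52989326 to 53094779, plus strand), encodes the collagen-binding α2. It was at 48.5, 26.8 and 54.1 FPKM in BxPC-3, where the second library lay far under the others, and at 44.5, 44.4 and 46.7 in BxPC-3-GR. In CFPAC-1 it was at 6.09, 6.85 and 5.88 and in CFPAC-1-GR at 23.8, 18.9 and 12.2. The BxPC-3 pair overlapped (log2FC 0.13, SE 0.251, limma adjusted p = 0.691), and the log2FC was -0.18 without the low library. ITGA2 was 2.92-fold higher in CFPAC-1-GR (log2FC 1.36, SE 0.219, adjusted p = 0.000967), but 0.31 with an adjusted p of 0.238 after the correction, so this rise did not hold.

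ITGA5, on chromosome 12 (54395261 to 54419460, minus strand), encodes α5 of the fibronectin receptor. It was at 11.8, 11.1 and 9.98 FPKM in BxPC-3 and 9.98, 10.3 and 10.5 in BxPC-3-GR, and at 12.5, 13.6 and 14.1 in CFPAC-1 and 5.14, 6.76 and 7.33 in CFPAC-1-GR. The BxPC-3 pair overlapped (log2FC -0.088, SE 0.069, limma adjusted p = 0.313). In CFPAC-1-GR it was 2.09-fold lower (log2FC -0.97, SE 0.123, adjusted p = 0.000287), and -0.62 after the correction (adjusted p = 0.00364).

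The parental lines differed in their integrins before any selection. Relative to BxPC-3, CFPAC-1 was lower in 6 subunits against 44.8% of all genes, and 5 of these were SDE downward (ITGAV, ITGA2, ITGA6, ITGB6, ITGB1) against 24.7%. It was higher in 3 (ITGA3, ITGB5, ITGA5) against 39.4%, with 1 SDE upward (ITGA3) against 19.8%. ITGAV was 8.43-fold lower in CFPAC-1 (log2FC -2.58, SE 0.135, limma adjusted p = 3.42e-06) and ITGA2 was 6.88-fold lower (log2FC -2.54, SE 0.252, adjusted p = 8.20e-05). Both kept the call after the correction, at -1.28 and -1.37 on the log2 scale, as the 2 subunits then SDE downward, against 14.6% of all genes. The other 3 lost it, with ITGA6 at -1.65 as deposited and -0.80 corrected, ITGB6 at -1.19 and -0.20, and ITGB1 at -1.08 and 0.019. ITGA3 was 2.87-fold higher in CFPAC-1 (log2FC 1.50, SE 0.076, adjusted p = 3.02e-06) and at 0.80 after the correction. ITGB8 turned: its log2FC was -0.32 as deposited (SE 0.087, adjusted p = 0.0122) and 1.10 after the correction (SE 0.066, adjusted p = 1.23e-05), the 1 subunit then SDE upward, against 12.4% of all genes. Which parent has more ITGB8 therefore rests on the processing.

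Between the resistant lines, where the GC trend was nearly flat, 6 subunits were lower in CFPAC-1-GR than in BxPC-3-GR, against 28% of all genes, and 3 of them were SDE downward against 6.8%. These were ITGB5 (log2FC -1.19, SE 0.063, limma adjusted p = 8.24e-06), ITGA2 (-1.31, SE 0.217, adjusted p = 0.00176) and ITGAV (-1.18, SE 0.128, adjusted p = 0.000232), with log2FC values of -1.20, -1.23 and -1.10 after the correction. ITGB8 (1.64-fold, log2FC 0.66, SE 0.136, adjusted p = 0.00491) and ITGB1 (1.48-fold, log2FC 0.55, SE 0.099, adjusted p = 0.00249) were higher in CFPAC-1-GR, 2 subunits against 37.3% of all genes, and 0 were SDE upward by limma against 10.3%. CFPAC-1-GR thus had more β8 than BxPC-3-GR but less αV. ITGA6 did not pass the test, at 45.6 ± 2.87 and 45.8 ± 4.52 FPKM (log2FC 0.0028, SE 0.093, adjusted p = 0.981), nor did ITGA3, at 48.5 ± 2.52 and 42.9 ± 3.04 (log2FC -0.18, adjusted p = 0.0844).

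The response itself was compared between the lines by an interaction over all 12 libraries, as CFPAC-1-GR against CFPAC-1 minus BxPC-3-GR against BxPC-3. The difference was SDE upward for 4 subunits (ITGA6 1.65, ITGB1 1.63, ITGAV 1.40, ITGA2 1.24) against 23.6% of all genes, and SDE downward for 2 (ITGA3 -1.67, ITGB5 -1.59) against 14.4%. After the correction 1 subunit was SDE downward, ITGB5 at -1.17 (SE 0.065, limma adjusted p = 1.42e-07), against 6.16% of all genes. Conversely, 0 were SDE upward by limma against 13.4%, with 3 upward at an unadjusted p below 0.05. The same 3 (ITGA6, ITGB1, ITGB4) were upward at an adjusted p below 0.05, against 41.7% of all genes. At that level 3 were downward (ITGA3, ITGB5, ITGA5), against 22.8%. For ITGB8 the difference was 0.98 as deposited (SE 0.171, adjusted p = 0.000329) and -0.21 after the correction (SE 0.101, adjusted p = 0.0943). For ITGAV it was 0.28 after the correction (SE 0.196, adjusted p = 0.235). The larger rises of ITGB8 and ITGAV in CFPAC-1-GR than in BxPC-3-GR were therefore not shown apart from the GC trend, while the opposite responses of ITGB5 were.

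ITGB8 changed its place in the order of levels in both resistant lines. In BxPC-3 the order was ITGB1, ITGA6, ITGB4, ITGA2, ITGA3, ITGAV, ITGA5, ITGB5, ITGB6 and ITGB8, from 134 to 2.31 FPKM, and the neighbours ITGB4, ITGA2 and ITGA3 overlapped. In BxPC-3-GR ITGA3, ITGA6 and ITGA2 overlapped in the places after ITGB1, and ITGB8 had passed ITGB6 and ITGA5 to rank 8. In CFPAC-1 ITGA3 came first, ITGB4 overlapped ITGB1, ITGA5 overlapped ITGB5, and ITGAV overlapped ITGB8, which ranked 9. In CFPAC-1-GR ITGB8 ranked 5, overlapping ITGA2, which in turn overlapped ITGAV. The 10 subunits together summed to 381 ± 7.56 FPKM in BxPC-3, 364 ± 9.26 in BxPC-3-GR, 296 ± 18.7 in CFPAC-1 and 350.2 ± 20.4 in CFPAC-1-GR (SD, n = 3). After the correction, chosen after the values were seen, the sum was 291 ± 12.8 in CFPAC-1 and 298.5 ± 8.35 in CFPAC-1-GR, and the libraries overlapped. The order above stands as deposited only.

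Read as 9 heterodimers, the level of the scarcer subunit sets how many pairs the RNA could supply, if both subunits were translated alike. In BxPC-3-GR the scarcer subunit was higher in all 3 libraries than in all 3 of BxPC-3 for 5 heterodimers (α3β1, αVβ1, αVβ5, αVβ6, αVβ8), where 30.1% of single genes tested were, and lower for 2 (α6β1, α6β4), where 36% were. In CFPAC-1-GR it was higher for 7 (α2β1, α6β1, α6β4, αVβ1, αVβ5, αVβ6, αVβ8), where 45.7% of single genes were, and lower for 2 (α3β1, α5β1), where 36.4% were. For all 4 αV heterodimers the RNA of the scarcer subunit was thus at a higher level in every resistant library than in those of its parent, also after the correction. The heterodimers share subunits and are not independent. A shared subunit such as αV is counted in full for each pair, so competition between partners is left out and the levels cannot be added. With 3 libraries against 3 the exact two-sided permutation test cannot go under p = 0.1, and every pair without overlap had that value.

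αVβ8 moved most. Its scarcer subunit was ITGB8 in both BxPC-3 lines, at 2.31 ± 0.315 FPKM in BxPC-3 and 11.9 ± 0.557 in BxPC-3-GR (difference 1.96 on the log2 scale, exact permutation p = 0.1, n = 3 each). In CFPAC-1 it was ITGAV or ITGB8, at 1.62 ± 0.188 FPKM, and in CFPAC-1-GR it was ITGAV, at 13.02 ± 2.57 (difference 2.41, or 1.18 after the correction, exact permutation p = 0.1, n = 3 each). The resistant lines thus met near the same level, from different limiting subunits. β8 was at 0.140 ± 0.0107 of the αV FPKM in BxPC-3 and 0.391 ± 0.0312 in BxPC-3-GR, and at 0.875 ± 0.162 in CFPAC-1 and 1.52 ± 0.364 in CFPAC-1-GR. After the correction this ratio was 0.963 ± 0.155 in CFPAC-1 and 1.45 ± 0.330 in CFPAC-1-GR.

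The level of the scarcer subunit of αVβ5 was higher in every CFPAC-1-GR library than in those of CFPAC-1, although ITGB5 fell. ITGAV was that subunit in CFPAC-1, at 1.94 ± 0.530 FPKM, and ITGB5 in CFPAC-1-GR, at 7.05 ± 0.404, 3.62-fold more. The difference was 1.47 on the log2 scale as deposited and 0.98 after the correction. For α6β4 the scarcer subunit was ITGB4 in BxPC-3, BxPC-3-GR and CFPAC-1-GR, at 53.5 ± 1.68, 39.3 ± 1.91 and 32.4 ± 1.61 FPKM, and ITGA6 in CFPAC-1, at 21.1 ± 1.41. For α3β1 it was ITGA3 in 3 lines and ITGB1 in CFPAC-1, at 62.6 ± 1.49 FPKM, the highest level of this pair in any line. As deposited, the limiting subunit of these 3 heterodimers differed between CFPAC-1 and its resistant derivative, while it was the same in BxPC-3 and BxPC-3-GR. After the correction, which shifts both lines toward their common mean, ITGA6 was the limiting subunit of α6β4 in both CFPAC-1 lines. For αVβ5 and α3β1 the libraries of 1 of the 2 lines were then divided between both subunits. The switch therefore rests on the processing. Against BxPC-3-GR, where ITGB4 was the scarcer of the α6β4 pair, ITGB4 and ITGA6 in CFPAC-1-GR were at log2FC values of -0.11 and 0.069 after the correction. Between the parents the scarcer subunit was lower in CFPAC-1 for 7 heterodimers, where 45.6% of single genes were, and higher for 2 (α3β1, α5β1), where 40.1% were. αVβ8 was among the 7, at -0.33 on the log2 scale, and turned to 1.07 after the correction.

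**Figure D5:**
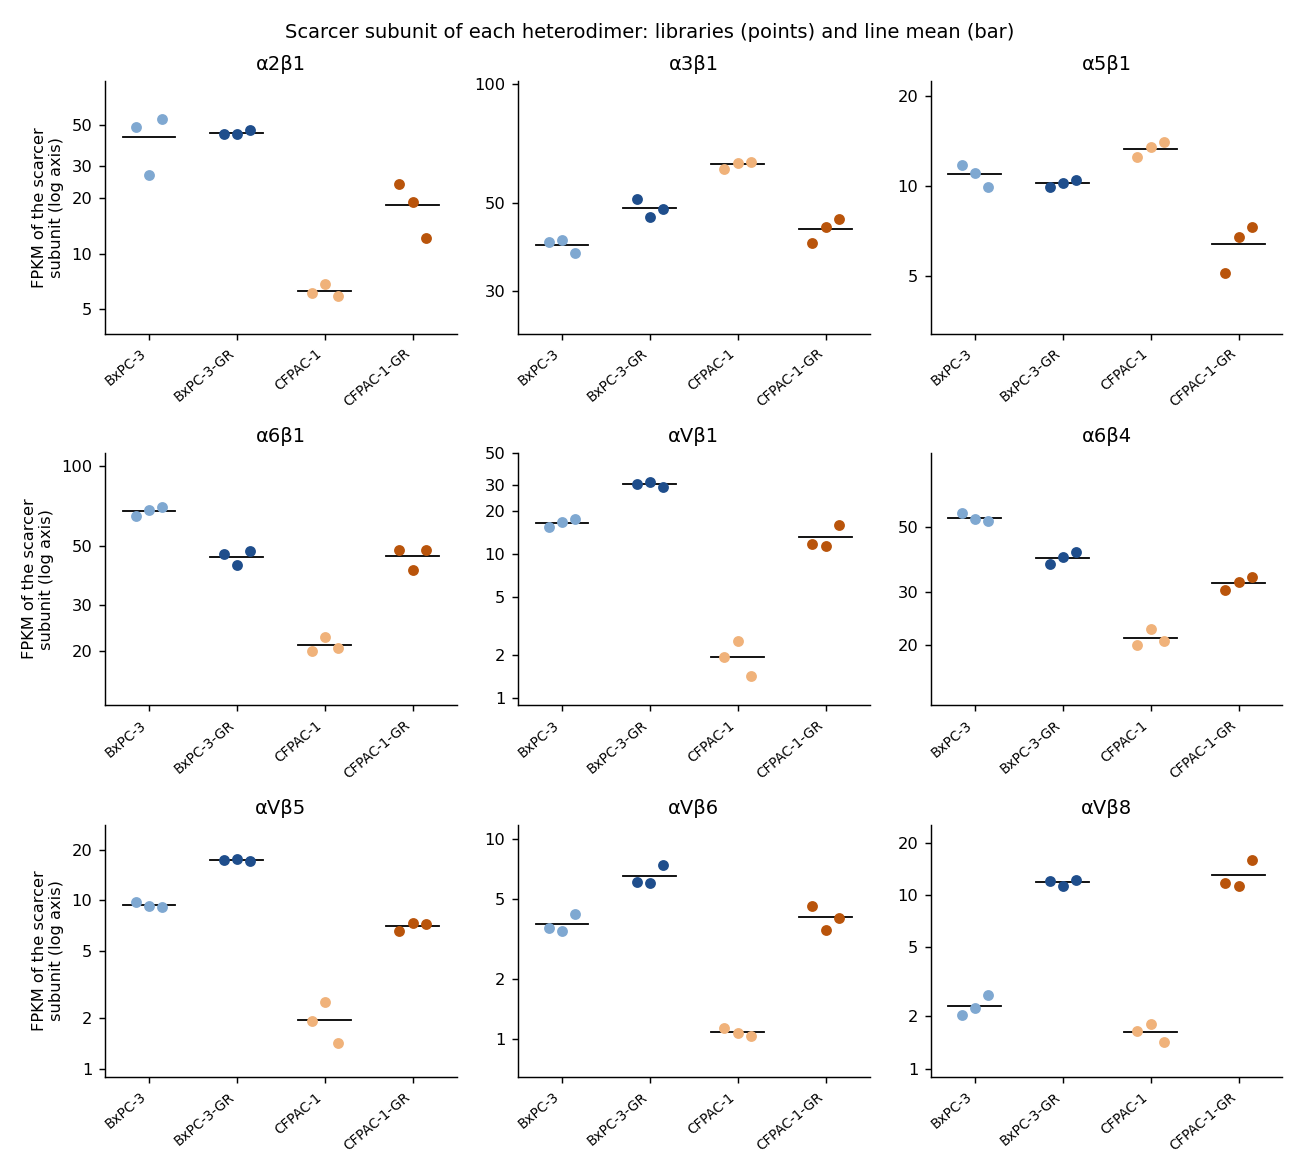
FPKM of the scarcer subunit (vertical axes, log scale, each panel with its own range) of 9 integrin heterodimers in the 3 libraries of each line (points) with the line mean (bar). The 4 αV panels show every resistant library above those of its parent, with αVβ8 near 11.9 for BxPC-3-GR and 13.02 for CFPAC-1-GR.

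Few other integrin subunits passed the filter on low values. Of 16 further subunit genes, 1 was tested in BxPC-3-GR against BxPC-3 and 3 in CFPAC-1-GR against CFPAC-1. ITGA1, tested in both, averaged 1.01 FPKM in CFPAC-1 and 1.41 in CFPAC-1-GR. Its log2FC there was 0.26 as deposited (limma adjusted p = 0.0156) but -1.09 after the correction (adjusted p = 0.000145), SDE downward. For CFPAC-1 against BxPC-3 it turned from -0.29 to 1.12, so its direction rests on the processing. ITGB2, the β subunit of leukocyte integrins, was at 13.1 ± 0.397 FPKM in CFPAC-1 and 2.58 ± 0.0969 in CFPAC-1-GR (log2FC -1.97, SE 0.063, limma adjusted p = 6.25e-06; -1.22 after the correction), and at 0.149 and 0.224 FPKM in BxPC-3 and BxPC-3-GR. Its α partners ITGAL, ITGAM and ITGAX averaged at most 0.446 FPKM in any line. ITGB3, a further partner of αV, averaged at most 0.727 FPKM.

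Of 25 laminin and other matrix ligand genes in the table, 11 were tested in BxPC-3-GR, with a median log2FC of -0.055, against -0.045 for all genes. COL4A6, a basement membrane collagen chain, was SDE downward there and fell by 1.01 on the log2 scale (limma adjusted p = 2.22e-05). In CFPAC-1-GR 17 were tested, with a median of -0.11, against 0.13. Of these, 2 were SDE upward and 1 downward, or 11.8% and 5.88% against 20.5% and 11.7% of all genes. THBS1, a matrix glycoprotein that can activate latent TGF-β, rose by a log2FC of 1.78 there and by 1.24 after the correction, whereas the rise of FN1, fibronectin, of 1.08 came to 0.0044 after it. Between the parents, of 17 tested, 8 were SDE upward in CFPAC-1 and 4 downward. That is 47.1% and 23.5% against 19.8% and 24.7% of all genes. After the correction 7 were SDE upward and 3 downward, against 12.4% and 14.6%. The largest were COL4A2 (0.0670 FPKM in BxPC-3, 84.7 in CFPAC-1, log2FC 6.32, corrected 5.69) and COL4A1 (0.0604 and 29.9, log2FC 4.86, corrected 4.55).

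Of the 9 latent TGF-β genes listed, TGFB1 and LTBP4 fell and TGFB2 rose in both resistant lines as deposited, while LTBP3 moved in opposite directions. The list holds TGFB1, TGFB2 and TGFB3 alike, and which of them supply a ligand of αVβ6 or αVβ8 was not tested. In BxPC-3-GR 3 of 7 tested genes were SDE, each upward, or 42.9% against 4.14% of all genes. The median log2FC was 0.97 against -0.045 for all genes. TGFB1 (38.7 to 28.8 FPKM, log2FC -0.41) and LTBP4 (-0.76) were lower and TGFB2 (0.29) higher at an adjusted p below 0.05 by limma. TGFB3 went from 0.446 to 6.83 FPKM (log2FC 2.43, limma adjusted p = 8.25e-06), and LTBP1 and LTBP3, which hold latent TGF-β in the matrix, rose by log2FC values of 1.33 and 1.20. In CFPAC-1-GR 3 of 5 were SDE downward, or 60% against 11.7% of all genes, with a median of -1.09 against 0.13. These were TGFB1, from 95.2 to 22.4 FPKM (log2FC -2.04, limma adjusted p = 6.35e-06), LTBP3 (-1.19) and LTBP4 (-1.09). After the correction TGFB1 was at -0.96, LTBP3 at -0.38 and LTBP4 at -0.22 in CFPAC-1-GR, short of the SDE threshold. TGFB2 was at 4.70 FPKM in BxPC-3, 5.98 in BxPC-3-GR, 30.6 in CFPAC-1 and 47.7 in CFPAC-1-GR, and its rise in CFPAC-1-GR (log2FC 0.62, adjusted p = 0.000729) turned to -0.39 after the correction (adjusted p = 0.0198).

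Of 8 hemidesmosome and tetraspanin genes, 7 were tested in each resistant line. KRT5, a basal keratin, was SDE downward in both, from 349.7 to 49.8 FPKM in BxPC-3-GR (log2FC -2.79, limma adjusted p = 2.74e-06) and from 4.46 to 0.794 in CFPAC-1-GR (log2FC -1.59, adjusted p = 0.000145; -0.90 after the correction). KRT14, the keratin partner of KRT5, was also SDE downward in BxPC-3-GR (-1.40). These were the 2 SDE genes of the list there, or 28.6% against 3.62% of all genes. PLEC, the plectin that β4 binds, rose from 62.0 to 98.3 FPKM in BxPC-3-GR (log2FC 0.66, adjusted p = 0.000189) and was SDE downward in CFPAC-1-GR, from 61.9 to 26.4 (log2FC -1.19, adjusted p = 0.000171; -0.50 after the correction). It is named because KRT5 and PLEC were the 2 genes SDE downward there, or 28.6% of the list against 11.7% of all genes. In CFPAC-1-GR 1 was SDE upward, or 14.3% against 20.5% of all genes. This was DST, the dystonin gene that includes the plaque protein BP230, from 0.932 to 11.3 FPKM (log2FC 2.64, limma adjusted p = 1.11e-05, and 1.28 after the correction). COL17A1, the collagen that joins α6β4 in the hemidesmosome, was at 175 and 138 FPKM in BxPC-3 and BxPC-3-GR but at 8.89 and 6.28 in CFPAC-1 and CFPAC-1-GR. COL17A1 thus separated the lines by parent, in the resistant libraries too.

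Among 44 focal adhesion genes, which link β subunits to actin, 38 were tested in BxPC-3-GR, with 2 SDE upward and 2 downward, or 5.26% each against 4.14% and 3.62% of all genes. ILK, a β1-binding pseudokinase, went from 6.23 to 118 FPKM in BxPC-3-GR (log2FC 4.05, limma adjusted p = 1.30e-06). In CFPAC-1-GR it went from 9.95 to 9.02 (log2FC -0.13, limma adjusted p = 0.158), but was higher after the correction (0.55, adjusted p = 0.000421). ILK lies on chromosome 11 (6603708 to 6610874), 2.46 Mb from the end of RRM1, which also rose in BxPC-3-GR. TNS4, a tensin, fell by 1.85 in BxPC-3-GR. PTK2, focal adhesion kinase, was SDE upward in both, at log2FC values of 1.46 and 1.21 (limma adjusted p = 2.04e-05 and 1.01e-05), the latter 0.46 after the correction. In CFPAC-1-GR 9 of 36 were SDE upward, led by ROCK2 (2.07) and ROCK1 (2.05), and 7 downward, which is 25% and 19.4% of the list against 20.5% and 11.7% of all genes. After the correction 1 was SDE, downward, against 2.35% of all genes, and ROCK2 and ROCK1 were at 0.93 each. Between the parents FERMT3, a kindlin, was at 35.8 FPKM in BxPC-3 and 0.387 in CFPAC-1 (log2FC -4.74, corrected -5.83), and YES1 at 15.9 and 0.732 (log2FC -3.29, corrected -2.14).

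The genes whose pattern over the 4 line means was most like that of a subunit were sought among 12209 genes by Euclidean distance of centred log2(FPKM + 1) means. They are given for the 3 subunits of widest range. For ITGAV (range 3.43) they were RNF144B (distance 0.220), PTBP3 (0.286) and KITLG (0.304). For ITGB8 (range 2.94) they were BIRC3 (0.447), ANKRD36C (0.516) and PGM2L1 (0.737), farther off than those of ITGAV. For ITGA2 (range 2.67) they were STK26 (0.0565), CAV2 (0.0752) and LAMP2 (0.0979). All 9 had a GC content between 34.8% (BIRC3) and 42.3% (RNF144B), within or near that of the 6 low-GC subunits.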

How the data were processed

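Each parent and its GR derivative gave 3 RNA libraries. Gene levels came as FPKM, as deposited by the authors in a single table (58302 genes, GRCh38 positions). The submitters' processing notes name Trimmomatic 0.27, FastQC 0.10.1, TopHat2 2.0.8 and the builds hg19 and GRCh38, and the tool that made the FPKM values is not given in the sources used here. Low FPKM values of single-transcript genes stepped by whole fragments (99.6% to 99.7% within 0.05), which gave the depths; fragments behind a subunit are approximate, from its longest transcript.

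Values were log2-transformed after adding 1, genes averaging under 1 FPKM in the libraries fitted were left out, and limma 3.58.1 (R 4.3.3) was run per comparison. SDE required an adjusted p below 0.05 and a log2FC beyond 1 in either direction. The correction fitted a spline with 5 degrees of freedom on GC content and gene length taken from GENCODE release 29. It was fitted within the libraries of each comparison and shifts both lines toward their common mean. A corrected level, share or ratio of either line therefore depends on the other. Heterodimers were tested by exact permutation. Alternatives were a pseudocount of 0.1, no filter, median-of-ratios scaling, this correction, the replicate block, both, all 12 libraries in 1 fit, and each library left out. The procedure was tested on simulated data.

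The subunits and all gene lists were chosen with earlier results of these data known. Named genes were the 10 subunits, then per list and comparison the 2 SDE genes of largest change and those SDE alike in both resistant lines, of which those nearest the integrins are printed (1 matrix ligand gene is not reported here), and the 3 nearest patterns. Of the other lists, 1 of 10 epithelial markers was SDE upward in BxPC-3-GR (ESRP1, log2FC 1.00), against 4.14% of all genes. In CFPAC-1-GR 1 was upward (GRHL2 1.46) and 2 downward (KRT19 -1.57, KRT18 -1.08), against 20.5% and 11.7%. After the correction GRHL2 was at 1.46, KRT19 at -0.47 and KRT18 at -0.41, so both downward calls were lost. Of 10 mesenchymal markers, 4 were tested in BxPC-3-GR, with 2 upward and 1 downward (S100A4 2.51, VIM -2.06), or 50% and 25% against 4.14% and 3.62%. In CFPAC-1-GR 6 were tested, with 1 upward and 1 downward (CDH2 1.19, VIM -1.11), or 16.7% each against 20.5% and 11.7%. These 2 genes were at 0.74 and -1.35 after the correction.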

Additional observations from a re-analysis of the deposited data

Results flagged for a closer look

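The response to GEM selection differed between the lines for 6 subunits, by a limma interaction over all 12 libraries (CFPAC-1-GR against CFPAC-1 minus BxPC-3-GR against BxPC-3). The differences were 1.65 for ITGA6, 1.63 for ITGB1, 1.40 for ITGAV, 1.24 for ITGA2, -1.67 for ITGA3 and -1.59 for ITGB5 on the log2 scale. Corrected for GC content and length, they were 0.95, 0.69, 0.28, 0.24, -0.81 and -1.17 in the same order, and ITGB5 alone of the 10 subunits was still SDE. The signs follow GC content, positive for the 4 subunits of low and negative for the 2 of high GC content. The part of base composition in these differences was not tested beyond this correction.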

How the results depend on the processing

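Counts of subunits called SDE moved by over 1.5 times in these cases. With the GC content and length correction, CFPAC-1-GR had 2 upward and 0 downward calls against 6 and 1 as reported, CFPAC-1 against BxPC-3 had 2 downward against 5, and the difference of response had 0 upward and 1 downward against 4 and 2. Downward calls in CFPAC-1-GR were 2 with a pseudocount of 0.1 (1969 of 12051 genes tested) and 4 with median-of-ratios scaling (2290 of 11966). As reported there was 1, with 1407 of 12051 genes, so the calls over all genes rose too. With each library left out there were 1 to 3. The count was 3 without CFPAC-1 replicate 1 (1370 of 12211 genes), and 2 without CFPAC-1-GR replicate 2 (1511 of 11849) or 3 (1423 of 11840). Median-of-ratios scaling moved the median log2FC of all genes in CFPAC-1-GR from 0.13 to -0.13.

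The replicate block (libraries paired by number) changed no call: CFPAC-1-GR had 6 upward and 1 downward, and with the correction it gave the counts of the correction alone. The numbers do not pair the libraries, since deviations of same-numbered libraries correlated at -0.143 to 0.0959.

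Directions reversed as follows. With the correction, alone or with the replicate block, CFPAC-1 against BxPC-3 came to 0.019 for ITGB1, -0.64 for ITGB4, -0.014 for ITGB5, 1.10 for ITGB8 and -0.11 for ITGA5, and the difference of response to 0.54 for ITGB4, -0.27 for ITGB6 and -0.21 for ITGB8. The scarcer subunit between the parents came to -0.11 for α5β1 and 1.07 for αVβ8, in a setting added after the data were seen. ITGA6 between the resistant lines came to -0.18 with median-of-ratios scaling and -0.048 to 0.086 with each library left out (below 0 without BxPC-3-GR replicate 2, CFPAC-1-GR replicate 1 or CFPAC-1-GR replicate 3). ITGA2 in BxPC-3-GR ranged from -0.18 (without BxPC-3 replicate 2) to 0.32 with each library left out. The cause of these reversals was not tested.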

Other observations

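In CFPAC-1-GR the 3 α subunits that pair with β1 to bind laminin or collagen changed their shares of the summed FPKM of the 5 α subunits. ITGA3 held 72.4% ± 1.68 in CFPAC-1 and 33.9% ± 2.78 in CFPAC-1-GR, ITGA6 13.6% ± 0.917 and 36.2% ± 2.32, and ITGA2 4.05% ± 0.403 and 14.5% ± 4.67 (SD, n = 3). After the GC content and length correction ITGA3 held 62.6% ± 2.21 and 46.6% ± 1.73, ITGA6 19.8% ± 1.14 and 29.6% ± 2.25, and ITGA2 6.77% ± 0.568 and 10.5% ± 3.31. In BxPC-3 and BxPC-3-GR ITGA6 held 38.4% ± 3.18 and 25.3% ± 0.974, and ITGAV 9.26% ± 0.830 and 16.9% ± 0.986. The sum of the 5 was 178 ± 13.1 FPKM in BxPC-3, 180.0 ± 4.66 in BxPC-3-GR, 155 ± 10.4 in CFPAC-1 and 126 ± 4.57 in CFPAC-1-GR.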
